A study of Mus musculus with 22 samples.

Results

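The genes described here encode enzymes that build cholesterol from acetyl-CoA. Of the 8 genes chosen by symbol (Hmgcs1, Mvk, Idi1, Fdps, Sqle, Lss, Cyp51 and Msmo1), 7 had at least 1 named spot on the arrays, 10 spots in all, and all 7 passed the filter on missing values and were tested among 18191 features. Idi1, the isopentenyl diphosphate isomerase, matched no spot by its symbol or a synonym and was not analysed here. All 8 genes encode synthesis enzymes. Cholesterol uptake was therefore followed through a separate list.

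Liver tumours labelled hepatocellular carcinoma were taken from mice of mixed background that lacked both copies of Mdr2, the transporter that moves phospholipid into bile. The 6 IkB-SR tumours (replicates 3, 4, 6, 8, 9 and 10) came from Mdr2-/- mice that also carried 2 transgenes: the IkB super-repressor, which holds NF-kB in the cytoplasm, which was switched through a tetracycline-regulated promoter, and the transactivator it needs, driven by a C/EBP promoter that the labels call hepatocyte-specific. The 4 Mdr2-KO tumours (replicates 1, 2, 5 and 7) came from Mdr2-/- mice without these transgenes, so the Mdr2 deletion was shared by both tumour groups. The wild-type liver was 1 sample of the same genetic background. Its label carries the same carcinoma stage as the tumours, and the extraction protocol in the labels names mouse skin, so the labels do not fully describe this sample. The labels give no age, no dose or time of tetracycline and no sex. The series design speaks of individual mice. The sample labels only number the tumours, and the tests below treat them as independent.

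Each sample was hybridised on 2 spotted arrays with swapped dyes against 1 universal mouse RNA pool. All values are log2 ratios of sample over that pool, averaged over the 2 arrays, and a difference between groups is a log2 difference. A ratio to a pool does not rank 1 gene against another. The hepatocyte marker list (15 of 16 genes measured) averaged 5.46 to 6.28 in IkB-SR tumours, 5.18 to 5.52 in Mdr2-KO tumours and 5.64 in the wild-type liver. Nfkbia, the gene from which the repressor is derived, lay at 1.69 to 3.11 in 5 IkB-SR tumours, at 0.003 in the tumour labelled IkB-SR 8, at 0.04 to 0.30 in Mdr2-KO tumours and at 0.09 in the wild-type liver. The tumour labelled IkB-SR 8 thus went against its label. The members' differences and correlations are also given without it, and group means and the other gene lists only with it. Eif2s3y, a gene of the Y chromosome, was above 0 in IkB-SR tumours 6 and 9, the tumour labelled IkB-SR 8 and the wild-type liver, and below 0 in the other 7 tumours. By the spread of their dye differences the samples formed 2 dye batches, with IkB-SR 3, 4, 9 and 10 and Mdr2-KO 1 and 2 in batch 1 and the others in batch 2.

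Cholesterol synthesis runs from HMG-CoA through mevalonate and isoprenoids to squalene, and from lanosterol to cholesterol. Liver cells are a main site of it. When sterols in the endoplasmic reticulum are low, the transcription factor encoded by Srebf2 is escorted by Scap to the Golgi, cut by the proteases Mbtps1 and Mbtps2, and switches on most of these enzyme genes together with Insig1. Insig proteins hold the Scap complex back when sterols are plentiful. Promoters of this pathway are known for short sterol regulatory elements close to CCAAT boxes, where NF-Y binds.

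The promoters of 3 members are shown as background on textbook targets of the factor encoded by Srebf2. The part of this factor in the members' levels was not tested. RefSeq promoters (build GRCm38.p6) were available for 5 of the 7 measured members; Sqle and Fdps had no entry. Each stretch is the 250 bases before the annotated start, in the direction of the gene. Capitals mark matches on either strand to CCAAT and to TCACNCCA, a core of the sterol regulatory element.
Hmgcs1 (chr13:119690101-119690350, plus strand): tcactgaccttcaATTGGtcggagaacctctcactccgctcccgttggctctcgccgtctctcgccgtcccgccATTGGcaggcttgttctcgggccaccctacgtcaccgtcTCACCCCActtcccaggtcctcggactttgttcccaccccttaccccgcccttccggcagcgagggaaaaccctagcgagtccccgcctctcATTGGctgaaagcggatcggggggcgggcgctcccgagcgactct
Msmo1 (chr8:64733579-64733828, minus strand): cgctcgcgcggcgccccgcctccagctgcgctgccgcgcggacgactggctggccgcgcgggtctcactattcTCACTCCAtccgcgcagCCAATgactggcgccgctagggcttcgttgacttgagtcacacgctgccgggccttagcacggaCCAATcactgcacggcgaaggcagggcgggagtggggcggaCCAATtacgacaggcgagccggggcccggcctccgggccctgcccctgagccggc
Cyp51 (chr5:4104698-4104947, minus strand): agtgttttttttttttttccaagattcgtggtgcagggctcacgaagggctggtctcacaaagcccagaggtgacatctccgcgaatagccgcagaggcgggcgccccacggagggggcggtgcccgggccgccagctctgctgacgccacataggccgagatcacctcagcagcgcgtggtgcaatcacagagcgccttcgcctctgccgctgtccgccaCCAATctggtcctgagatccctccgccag
The CCAAT letters were found in all 5 promoters searched (Hmgcs1, Msmo1, Cyp51, Mvk and Lss), against 33.8% of 32851 mouse promoter windows of the same length. The TCACNCCA letters were found in 2 of the 5, Hmgcs1 and Msmo1, against 3.67% of windows. Both are among the 3 shown. Cyp51, also shown, and Mvk and Lss, not shown, had no match to these letters. Other forms of the sterol regulatory element were not searched, so these promoters may still hold one. The letters GGGCGG, a GC box, not capitalised here, stood in all 5, against 32.7%. No CCAAT match overlapped a TCACNCCA match. These are letter matches and say nothing of binding in these tumours.

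The main feature of the data was a spread between tumours that both groups shared. IkB-SR 3 and Mdr2-KO 1, tumours of opposite groups, were the 2 lowest of the 10 tumours for each of the 7 measured members. IkB-SR 6 was the highest for 6 of them, the exception being Mvk. Over 15024 features with a value in all tumours, the same pair was lowest in 1.98% and IkB-SR 6 highest in 10.4%. These tumours were singled out by the members' values, so the counts describe the pattern and carry no test. The pair was lowest for 5 of 7 members when only arrays with the sample in Cy3 were read, and for 5 of 7 in Cy5. IkB-SR 6 was highest for 6 of 7 in Cy3 and for 4 of 7 in Cy5.

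**Figure D1:**
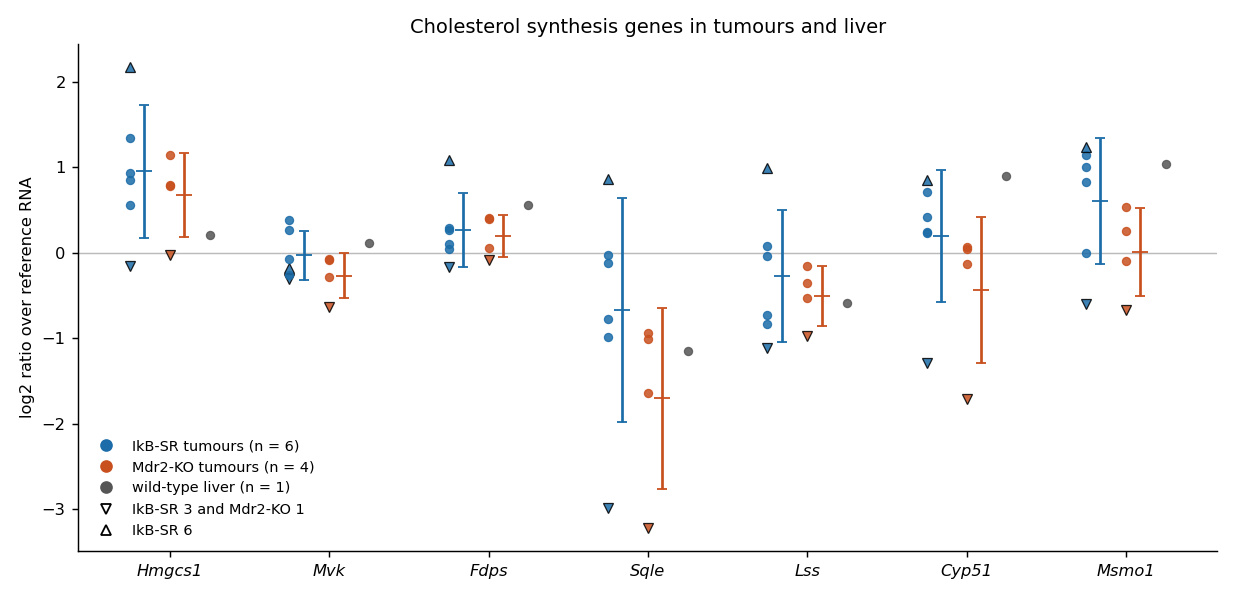
Log2 ratio over the reference RNA (vertical axis) of the 7 measured members (horizontal axis) in 6 IkB-SR tumours, 4 Mdr2-KO tumours and 1 wild-type liver, 1 symbol per sample, with mean ± SD beside the tumour groups. Among the tumours, downward triangles (IkB-SR 3 and Mdr2-KO 1) lie at the bottom for every member and the upward triangle (IkB-SR 6) at the top for all but Mvk.

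Sqle, squalene epoxidase, which adds oxygen to squalene and is a second control point of the pathway, varied most. Its log2 ratio had a low of -2.99, a median of -0.45 and a high of 0.87 in IkB-SR tumours, against -3.22, -0.94, -1.01 and -1.64 in Mdr2-KO tumours 1, 2, 5 and 7 and -1.15 in the wild-type liver. The low IkB-SR value (tumour 3) lay beside the Mdr2-KO 1 value, so the groups overlapped, although 4 of 6 IkB-SR tumours lay above all Mdr2-KO tumours. From lowest to highest tumour Sqle spanned 4.09 log2 units, or 17.0-fold. Its SD over the 10 tumours, 1.27, stood at percentile 99.7 of all 15024 features, whose median SD was 0.24.

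Cyp51, lanosterol demethylase, the first enzyme to act on lanosterol, had the same 2 lowest tumours and the same highest tumour. It had a low of -1.29, a median of 0.33 and a high of 0.85 in IkB-SR tumours, against -1.71, 0.04, 0.07 and -0.13 in Mdr2-KO tumours 1, 2, 5 and 7 and 0.89 in the wild-type liver. Apart from IkB-SR 3, all IkB-SR tumours lay above all Mdr2-KO tumours. All 10 tumours lay below the wild-type liver by the mean of both arrays, with IkB-SR 6 closest to it. On arrays with the sample in Cy5, IkB-SR 4 (0.29) lay above the liver (0.15). The liver belonged to dye batch 2, where Cy5 minus Cy3 averaged -1.42 for Cyp51.

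Msmo1, the methylsterol oxidase that starts removal of the next methyl groups, had a low of -0.60, a median of 0.92 and a high of 1.24 in IkB-SR tumours, against -0.67, 0.53, -0.10 and 0.26 in Mdr2-KO tumours 1, 2, 5 and 7 and 1.04 in the wild-type liver. The groups overlapped through IkB-SR 3 and IkB-SR 9, and 8 of 10 tumours lay below the liver by the mean of both arrays. With the sample in Cy5, IkB-SR 10 (1.05) and Mdr2-KO 2 (0.50) also lay above the liver (0.47). With the sample in Cy3, IkB-SR 4 (1.04) lay below the liver (1.61).

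Hmgcs1, the cytosolic HMG-CoA synthase at the head of the pathway, had a low of -0.15, a median of 0.89 and a high of 2.17 in IkB-SR tumours, against -0.02, 0.80, 1.14 and 0.78 in Mdr2-KO tumours 1, 2, 5 and 7 and 0.21 in the wild-type liver. The 2 tumours below the liver were IkB-SR 3 and Mdr2-KO 1, and the other 8 lay above it. With the sample in Cy5, Mdr2-KO 1 (-0.03) lay above the liver (-0.10). Hmgcs1 had 2 spots, which ranged over the samples from -0.19 to 1.98 and from -0.11 to 2.37.

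Lss, which closes the sterol rings to form lanosterol, had a low of -1.11, a median of -0.39 and a high of 0.99 in IkB-SR tumours, against -0.98, -0.35, -0.53 and -0.16 in Mdr2-KO tumours 1, 2, 5 and 7 and -0.58 in the wild-type liver. The Mdr2-KO tumours fell inside the span of the IkB-SR tumours. Of the 3 Lss spots, 1 had values on both arrays in 2 samples only.

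Fdps, the farnesyl diphosphate synthase, had a low of -0.17, a median of 0.18 and a high of 1.09 in IkB-SR tumours, against -0.09, 0.41, 0.39 and 0.06 in Mdr2-KO tumours 1, 2, 5 and 7 and 0.56 in the wild-type liver. IkB-SR 6 was the only tumour above the liver. Mvk, mevalonate kinase, was the flattest member, with a low of -0.30, a median of -0.13 and a high of 0.38 in IkB-SR tumours, against -0.63, -0.07, -0.09 and -0.28 in Mdr2-KO tumours 1, 2, 5 and 7 and 0.12 in the wild-type liver. The SDs of Fdps (0.36) and Mvk (0.29) stood at percentiles 74.0 and 61.0 of all features, while those of Msmo1, Hmgcs1 and Lss lay between 94.2 and 95.8 and that of Cyp51 at 97.6.

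The question of the series was which genes differ between tumours with and without the super-repressor. All 7 members had a higher mean in IkB-SR than in Mdr2-KO tumours, and none passed the test. Sqle averaged -0.67 ± 1.31 (SD, n = 6) in IkB-SR tumours and -1.70 ± 1.06 (SD, n = 4) in Mdr2-KO tumours, a difference of 1.03 (SE 0.71, 95% interval -0.56 to 2.62, limma adjusted p = 0.659, exact permutation p = 0.233). Cyp51 averaged 0.20 ± 0.77 (SD, n = 6) in IkB-SR tumours and -0.44 ± 0.86 (SD, n = 4) in Mdr2-KO tumours, a difference of 0.63 (interval -0.42 to 1.68, limma adjusted p = 0.695, exact permutation p = 0.271). Msmo1 averaged 0.60 ± 0.74 (SD, n = 6) in IkB-SR and 0.01 ± 0.52 (SD, n = 4) in Mdr2-KO tumours, a difference of 0.59 (interval -0.27 to 1.46, limma adjusted p = 0.631, exact permutation p = 0.200). The differences of Hmgcs1, Mvk, Lss and Fdps were 0.28, 0.24, 0.23 and 0.08, with limma adjusted p-values of 0.664 to 0.962.

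Limma called 0 of the 7 members at an adjusted p under 0.05, and 0 at an unadjusted p under 0.05; over all 18191 features it called 0% adjusted and 12.5% unadjusted, with 3.12% of all features unadjusted and higher in IkB-SR tumours. The groups overlapped for all 7 members; over all features, IkB-SR tumours lay wholly above Mdr2-KO tumours in 1.07% and wholly below in 2.56%. A difference above 0 was found in 7 of 7 members and in 43.3% of all features, and the median difference was 0.28 over the members and -0.02 over all features. After quantile normalization these medians were 0.35 and 0.02. The members varied together over the same tumours, so their signs, here and in the comparisons below, are not independent of each other. The exact permutation test over the 210 splits of the tumours, two-sided, could reach a p of 0.00476. Without the tumour labelled IkB-SR 8 the members' differences stayed above 0, between 0.12 for Fdps and 0.90 for Sqle, with 0 called. Without IkB-SR 3 the differences of Sqle, Cyp51 and Msmo1 were 1.49, 0.93 and 0.83, at limma adjusted p-values of 0.368, 0.417 and 0.387. Without Mdr2-KO 1, the other low tumour, they were 0.52, 0.20 and 0.37, at limma adjusted p-values of 0.836, 0.890 and 0.806. With array weights, which count tumours far from their group's pattern less, they were 0.29, 0.19 and 0.25.

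**Figure D2:**
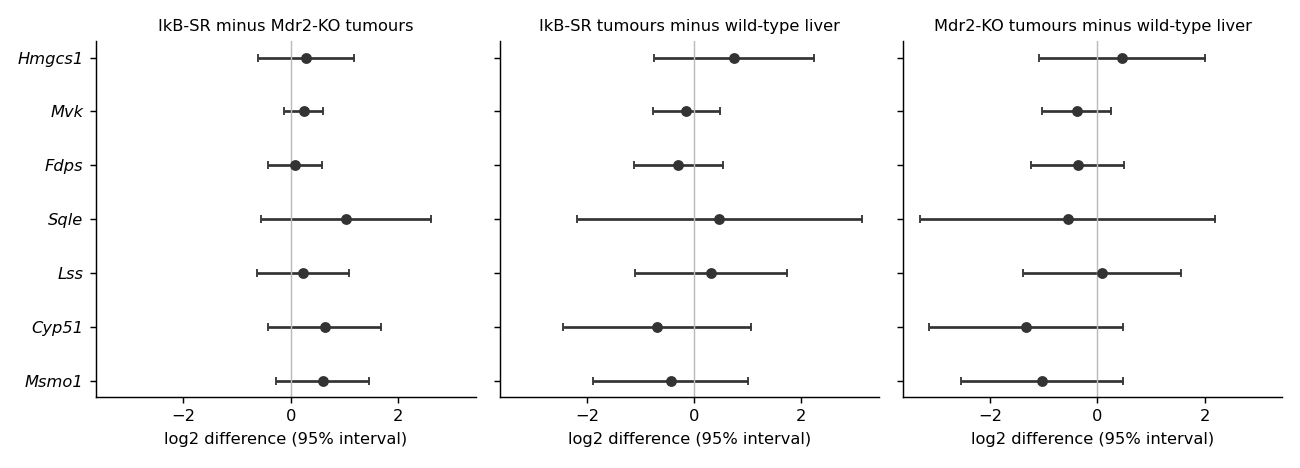
Log2 difference (horizontal axis) with its 95% interval for each member in the 3 comparisons of the limma fit. Every interval spans 0, and Sqle has the widest.

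Cell markers also differed between the tumour groups. The macrophage and Kupffer list averaged 1.55 to 2.06 in IkB-SR tumours and 2.21 to 3.27 in Mdr2-KO tumours, with a difference below 0 for 10 of its 10 genes. The endothelial list averaged 0.43 to 1.42 in IkB-SR tumours and 1.64 to 3.03 in Mdr2-KO tumours, with a difference below 0 for 9 of 9. The hepatocyte list went the other way, with a mean of 5.94 in IkB-SR and 5.37 in Mdr2-KO tumours. Its difference was below 0 for 4 of 15 genes. Over all features, 10322 of 18191 had a difference below 0. The part of these cells in the members' differences was not tested.

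Dye batch and Eif2s3y moved with some of these values. Within batch 1 (4 IkB-SR and 2 Mdr2-KO tumours) the difference was 0.86 for Sqle, 0.74 for Cyp51, 0.45 for Msmo1, 0.16 for Hmgcs1 and -0.04 for Fdps. Within batch 2 (2 IkB-SR and 2 Mdr2-KO tumours) it was 1.74, 0.81, 0.95, 0.80 and 0.34 for the same genes. Mvk and Lss were at 0.29 and 0.19 in batch 1 and at 0.23 and 0.47 in batch 2. Among the 7 tumours with Eif2s3y below 0 (3 IkB-SR and 4 Mdr2-KO), the difference was 0.12 for Sqle and 0.23 for Cyp51, and Hmgcs1 and Fdps turned to -0.22 and -0.066. Msmo1, Mvk and Lss were at 0.51, 0.27 and 0.15 among these tumours. With Eif2s3y as a covariate Sqle was at -0.19, Hmgcs1 at -0.38 and Fdps at -0.13, while Msmo1 was at 0.45, Mvk at 0.28, Cyp51 at 0.080 and Lss at 0.064. No member was called in any of these fits, and the part that the batch or the Y chromosome gene has in the differences was not tested.

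Against the wild-type liver no member was called. The fit gave the liver, a single sample, the spread of the tumours, and the liver belonged to dye batch 2. In IkB-SR tumours minus wild-type liver, Hmgcs1 was at 0.74 (SE 0.67), Sqle at 0.47 (SE 1.19), Lss at 0.31 (SE 0.64), Mvk at -0.15 (SE 0.28), Fdps at -0.29 (SE 0.37), Msmo1 at -0.44 (SE 0.65) and Cyp51 at -0.70 (SE 0.78). The limma adjusted p-values ran from 0.864 to 0.920 for the members, of which 3 of 7 had a difference above 0, against 47.1% of all features. Over 17420 features, 0.161% were called. In Mdr2-KO tumours minus wild-type liver, Hmgcs1 was at 0.46 (SE 0.69), Lss at 0.08 (SE 0.66), Fdps at -0.37 (SE 0.39), Mvk at -0.39 (SE 0.29), Sqle at -0.56 (SE 1.23), Msmo1 at -1.03 (SE 0.67) and Cyp51 at -1.33 (SE 0.81). The adjusted p-values ran from 0.682 to 0.972, and 2 of 7 members had a difference above 0, against 53% of all features, of which 0.247% were called. At an unadjusted p under 0.05 limma called 0 of 7 members in both comparisons with the liver, against 9.28% of all features for IkB-SR tumours and 10.5% for Mdr2-KO tumours. With dye batch as a block, IkB-SR tumours minus wild-type liver gave 1.37 for Hmgcs1 (unadjusted p = 0.0273, adjusted p = 0.384 in limma), 1.31 for Sqle, 0.63 for Lss, -0.060 for Mvk, -0.10 for Fdps, -0.13 for Cyp51 and -0.15 for Msmo1. The same block gave Mdr2-KO tumours minus wild-type liver values of 0.93 for Hmgcs1, 0.32 for Lss, 0.072 for Sqle, -0.23 for Fdps, -0.32 for Mvk, -0.82 for Msmo1 and -0.91 for Cyp51. Without the tumour labelled IkB-SR 8 the IkB-SR differences ran from -0.80 for Cyp51 to 0.66 for Hmgcs1, with 0 called. Both comparisons use the same liver sample. Hmgcs1 stood above it in both tumour groups, and Cyp51, Msmo1, Fdps and Mvk below it. In bulk tissue, fewer cells of a type and less RNA per cell cannot be told apart.

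Across the 10 tumours the members varied together. All 21 pairs had a Pearson's r above 0 (0.21 to 0.96, median 0.72), and Spearman's rho lay between 0.43 and 0.92 (median 0.62). By permutation with Benjamini-Hochberg adjustment over the 21 pairs, 14 pairs passed 0.05 by Pearson's r and 3 by Spearman's rho. The 3 pairs by rank were Sqle with Cyp51, Msmo1 with Cyp51 and Msmo1 with Lss. The members were chosen with earlier results of these data known, so these p-values are descriptive. The share of all gene pairs that would pass was not computed. Sqle and Cyp51 had r = 0.96 (permutation adjusted p = 0.00084) and rho = 0.92 (permutation adjusted p = 0.0139), and r = 0.89 without the 2 tumours farthest from the Sqle median. Mvk was the loosest member, with r = 0.21 to Fdps and 0.27 to Lss. With group means subtracted the median r was 0.70.

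The size of the co-variation depended on the tumours at the ends. Without the 2 tumours farthest from the median of the gene on the x axis the median r was 0.44 (-0.04 to 0.89). Without IkB-SR 3 and Mdr2-KO 1 it was 0.49 over 8 tumours, and without IkB-SR 6 as well it was 0.09 over 7 tumours, with r from -0.71 to 0.80 and 14 of 21 pairs above 0. These 3 tumours were chosen as the extremes of the members' own values, so leaving them out narrows the range and lowers r by construction. Leaving out any 1 tumour gave a median r of 0.62 to 0.77, with 0.77 without the tumour labelled IkB-SR 8, and all 21 pairs above 0 each time. Within dye batch 1, which holds both low tumours, the median r over 6 tumours was 0.79 and all 21 pairs were above 0. Batch 2 has 4 tumours, too few for a correlation.

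**Figure D3:**
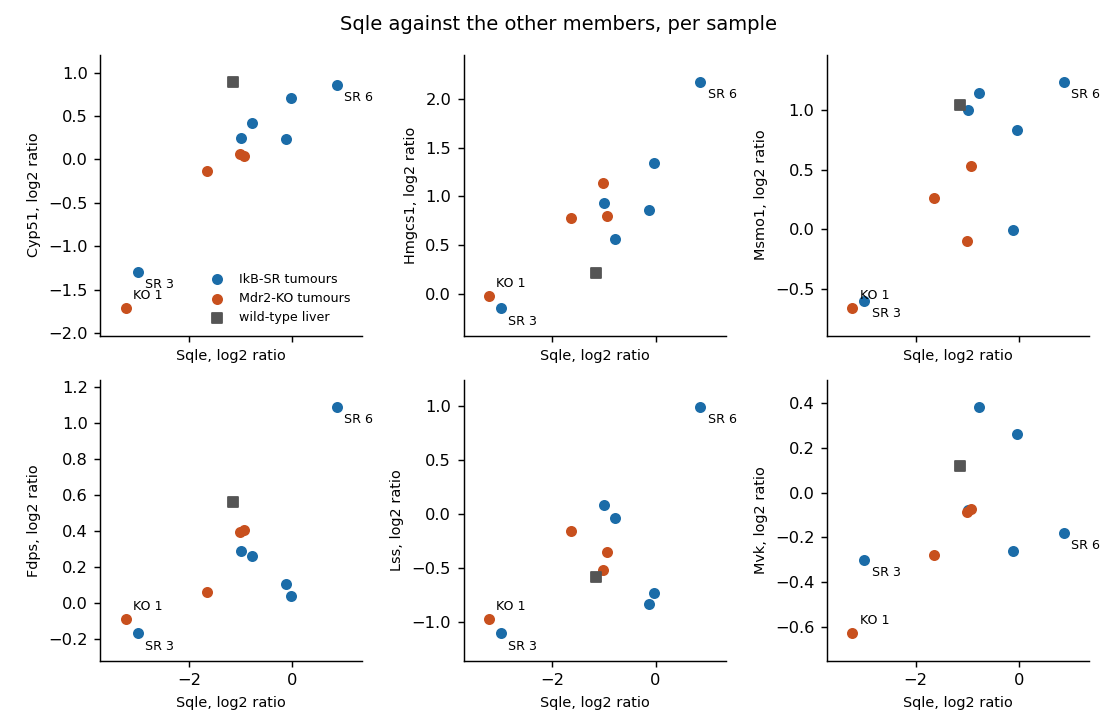
Log2 ratio of Sqle (horizontal axes) against each of the other 6 measured members (vertical axes), 1 point per sample, with IkB-SR 3, IkB-SR 6 and Mdr2-KO 1 labelled. The labelled tumours mark the ends of most panels, and the tumours between them line up most closely for Cyp51.

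Other enzymes of the same pathway showed the same tumours at the ends. Of 14 listed, 11 were tested, and 10 had a value in all tumours. IkB-SR 3 and Mdr2-KO 1 were the 2 lowest tumours for 7 of the 10, and IkB-SR 6 was highest for 6. Nsdhl, the sterol dehydrogenase that works with Msmo1, was at -0.78 in IkB-SR 3 and -0.62 in Mdr2-KO 1, while the 7 tumours outside the 3 extremes lay between 0.20 and 1.61 and IkB-SR 6 at 2.19. Dhcr7, the last reductase of the pathway, was at -0.40 in IkB-SR 3, 0.22 in Mdr2-KO 1 and 3.17 in IkB-SR 6, with the other 7 tumours at 0.97 to 1.85. Tm7sf2, a sterol reductase, was at 1.26 in IkB-SR 3 and 1.08 in Mdr2-KO 1, against 2.42 to 3.37 in the other 7, but was not raised in IkB-SR 6 (2.95). Dhcr7 and Tm7sf2 were chosen for description after their values were seen. Between IkB-SR and Mdr2-KO tumours 9 of the 11 had a difference above 0 and 0 were called, with a median of 0.13.

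The named genes outside the members whose level was most like the member mean over the 10 tumours were Nsdhl (r = 0.95), Ykt6 (0.90), Insig1 (0.89), Chmp7 (0.87), Utp14b (0.87), Fkbp11 (0.87), Mvd (0.87) and Myo1d (0.87). Nsdhl and Mvd, the mevalonate diphosphate decarboxylase, are enzymes of the pathway and Insig1 is its sterol sensor partner. Of 10252 named genes compared, 21 (0.205%) had an r over 0.8, and the median r was -0.05. Among the other listed synthesis enzymes r ran from 0.39 to 0.95, with 5 of 11 over 0.8. The 5 include a gene with r = 0.90 over 9 tumours, which was not among the 10252 compared. Without IkB-SR 6 and Mdr2-KO 1, the tumours farthest from the median of the member mean, r was 0.92 for Nsdhl, 0.68 for Insig1 and 0.59 for Mvd.

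Among the regulators, Insig1 was at -0.26 in Mdr2-KO 1, 0.61 in IkB-SR 3 and 2.68 in IkB-SR 6, with the other 7 tumours at 1.25 to 1.70 and the wild-type liver at 0.81. Srebf2, the gene of the factor that drives the pathway, was lowest in IkB-SR 3 (-3.08), followed by IkB-SR 4 (-2.56) and Mdr2-KO 1 (-2.26), and highest in the tumour labelled IkB-SR 8 (-1.02). Its r to the member mean was 0.54 (rho 0.21), and that of Srebf1, which drives fatty acid genes, was 0.51 (rho 0.33). Srebf2 averaged -1.86 ± 0.81 (SD, n = 6) in IkB-SR tumours and -1.57 ± 0.48 (SD, n = 4) in Mdr2-KO tumours, and Srebf1 0.87 ± 0.59 (SD, n = 6) and 0.92 ± 0.52 (SD, n = 4). Mbtps2, a protease that cuts the factor, had a difference of -0.30 between IkB-SR and Mdr2-KO tumours at an unadjusted p of 0.0371 in limma, which did not hold after adjustment (0.370). No regulator was called in any comparison.

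Fatty acid synthesis genes had the same highest tumour, and the low pair was less uniform among them. All 7 with a value in every tumour were highest in IkB-SR 6, while IkB-SR 3 and Mdr2-KO 1 were the 2 lowest for 1 of 7. By the mean of the list IkB-SR 3 was the lowest tumour and Mdr2-KO 1 stood at rank 3 from the bottom, after IkB-SR 9. The difference between this list and the members was not tested. Fasn, the fatty acid synthase, was at 4.30 in IkB-SR 6, 0.76 in IkB-SR 3 and 1.56 in Mdr2-KO 1. Scd1, the stearoyl-CoA desaturase, was at 5.61 in IkB-SR 6, 2.40 in IkB-SR 3 and 3.24 in Mdr2-KO 1. Relative to each gene's median over the tumours, the mean of the 7 fatty acid genes was 1.75 in IkB-SR 6, -0.59 in IkB-SR 3, -0.23 in Mdr2-KO 1 and 0.83 in Mdr2-KO 5. The same measure for the 7 members was 1.00, -0.95, -1.05 and -0.02 in these tumours, and for the 10 other cholesterol enzymes 0.90, -0.86, -0.63 and 0.29. Fasn and Scd1 were chosen for description after their values were seen. Between the tumour groups 5 of 8 fatty acid genes had a difference above 0, with a median of 0.00, and 0 were called.

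**Figure D4:**
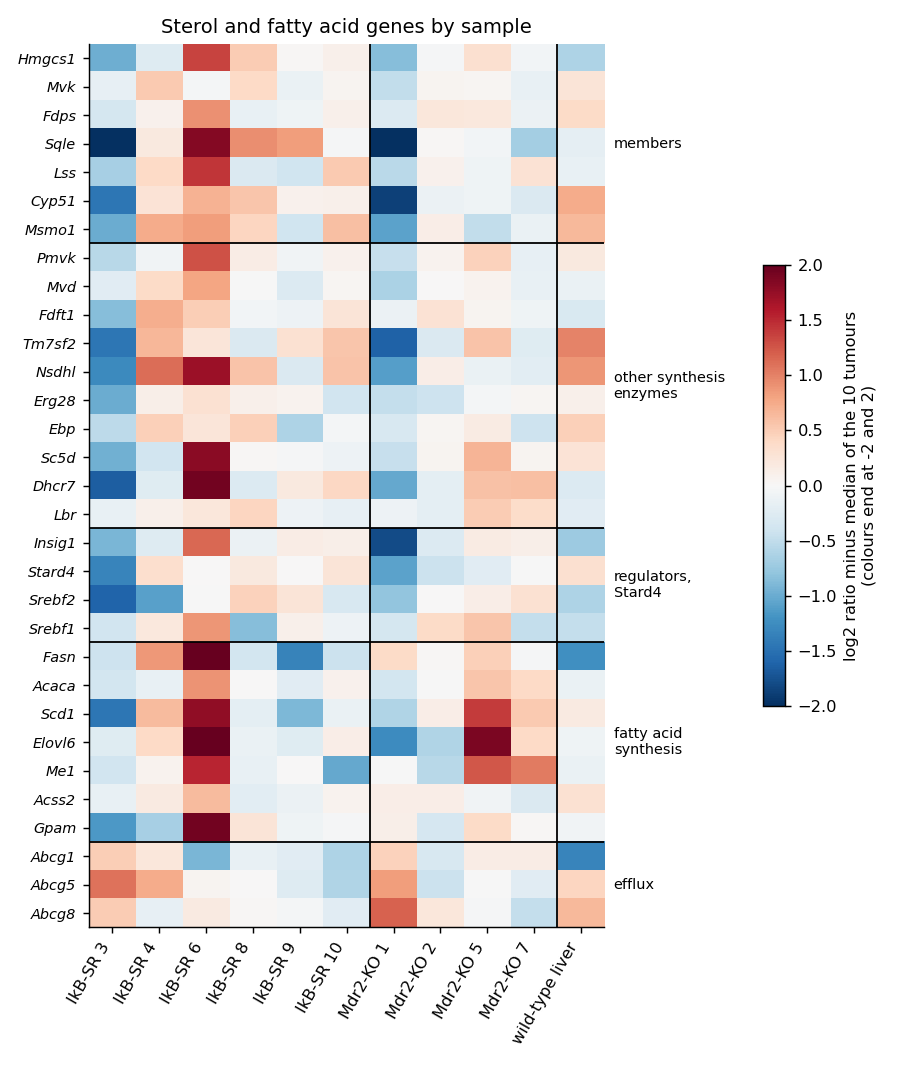
Log2 ratio minus the gene's median over the 10 tumours (colour, ending at -2 and 2) for the members and listed pathway genes (rows) in each sample (columns, IkB-SR tumours, Mdr2-KO tumours, wild-type liver). The cholesterol synthesis rows are blue in IkB-SR 3 and Mdr2-KO 1 and mostly red in IkB-SR 6, and the fatty acid rows are red in IkB-SR 6.

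**Figure D5:**
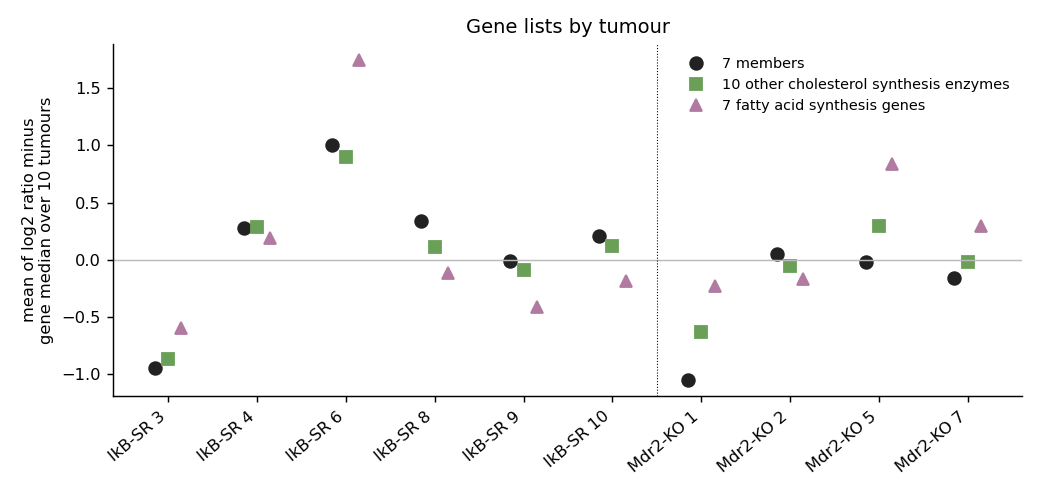
Mean over the genes of a list of the log2 ratio minus the gene's median (vertical axis) for each tumour (horizontal axis), with IkB-SR tumours left of the dotted line and Mdr2-KO tumours right of it. In Mdr2-KO 1 the members lie at -1.05 and the fatty acid genes at -0.23, and in IkB-SR 6 the fatty acid genes reach 1.75.

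In the list of uptake and intracellular transport genes, 8 of 12 were tested and none was called in a comparison. Most of the list did not follow the members. Its r to the member mean ran from -0.68 to 0.83, with a median of -0.21 and 5 of 8 below 0. The median over 10252 named genes was -0.05. Stard4, a sterol carrier in the cytosol, followed the members (r = 0.83): it was at -0.88 in IkB-SR 3 and -0.63 in Mdr2-KO 1, with the other 8 tumours at 0.00 to 0.78. It was picked for description after its values were seen. Mylip, a ubiquitin ligase that acts on lipoprotein receptors, had a difference of -0.37 between IkB-SR and Mdr2-KO tumours (unadjusted p = 0.0401, adjusted p = 0.376 in limma) and of -0.84 between IkB-SR tumours and wild-type liver (adjusted p = 0.318 in limma). Vldlr, a lipoprotein receptor, and Lipa, the lysosomal acid lipase, stood above the wild-type liver in both tumour groups. Vldlr differed from the liver by 1.07 in IkB-SR and 1.12 in Mdr2-KO tumours, and Lipa by 1.25 and 1.33, at limma adjusted p-values of 0.153 to 0.227.

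Of the 13 efflux, esterification and bile acid genes, 0 were called in a comparison, and 8 had an r below 0 to the member mean. The median r was -0.24 over this list and -0.05 over 10252 named genes, so an r below 0 was common among all genes. Abcg1, a sterol exporter, had r = -0.82 (rho -0.68), with 0.70 in IkB-SR 3, 0.66 in Mdr2-KO 1 and -0.70 in IkB-SR 6. Abcg5 and Abcg8, the paired transporters that move sterols into bile, were highest in IkB-SR 3 and Mdr2-KO 1 (6.69 and 6.44 for Abcg5, 3.71 and 4.37 for Abcg8). Abcg5 and Abcg8 were chosen after their values were seen. Between IkB-SR and Mdr2-KO tumours, Cyp27a1, a sterol hydroxylase of bile acid synthesis, had a difference of 0.33 (unadjusted p = 0.0154, adjusted p = 0.271 in limma). Soat1, which esterifies cholesterol, had one of -0.65 (unadjusted p = 0.0280, adjusted p = 0.334 in limma). Abcg1 stood above the wild-type liver by 1.13 in IkB-SR and 1.44 in Mdr2-KO tumours, and Soat1 by 1.04 in Mdr2-KO tumours. Cyp7b1, a bile acid enzyme, differed from the liver by -2.84 in IkB-SR and -2.63 in Mdr2-KO tumours, at limma adjusted p-values of 0.364 and 0.363. In Mdr2-KO tumours minus wild-type liver the unadjusted p was under 0.05 also for Cyp8b1 (-2.26) and Cyp27a1 (-0.71).

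Among the 4 tested branch enzymes, which take isoprenoids to other products, 0 were called, and Dhdds, of dolichol synthesis, had a difference of -0.31 between IkB-SR and Mdr2-KO tumours (unadjusted p = 0.0448, adjusted p = 0.388 in limma). Cell cycle genes did not follow the members: r to the member mean ran from -0.53 to 0.01 over 10 genes. In Mdr2-KO tumours minus wild-type liver, 8 of these 10 (Mki67, Cdk1, Ccna2, Mcm2, Mcm5, Birc5, Aurkb and Plk1, at 0.75 to 1.53) had an unadjusted p under 0.05 and stood higher, against 8.5% of all features, and 0 were called. In IkB-SR tumours minus wild-type liver this held for Mcm2 (1.10) and Aurkb (1.05), against 6.1% of all features.

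Markers of other cells differed between the 2 low tumours. The endothelial list (9 genes) averaged 0.91 in IkB-SR 3, 3.03 in Mdr2-KO 1 and 1.19 in IkB-SR 6. The macrophage and Kupffer list (10 genes) averaged 2.06 in IkB-SR 3, 3.27 in Mdr2-KO 1 and 1.70 in IkB-SR 6. Mdr2-KO 1 was thus the highest tumour for both lists, while IkB-SR 3 was second lowest for the endothelial list. The hepatocyte list averaged 5.89 in IkB-SR 3, 5.52 in Mdr2-KO 1 and 5.70 in IkB-SR 6, inside the span of the other tumours. The part of other cells in the members' levels was not tested.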

How the data were processed

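RNA of 11 samples (6 IkB-SR tumours, 4 Mdr2-KO tumours and 1 wild-type liver) was amplified from a T7 primer and hybridised on 22 two-colour arrays, per the labels' protocols. The authors deposited a value for each of 37632 spots on each array, read here as log2 ratios that they had normalized. Log base, image analysis, background correction and spot filter: not given in the sources used here. Base 2 was assumed. The direction, sample over reference, is likely, since hepatocyte genes were high in all samples. The arrays of a sample correlated at r = 0.861 to 0.988, so both dye orientations had been turned the same way. Array medians lay between -0.31 and 0.01, and 19576 to 25000 spots per array had a value. The number of arrays limits the precision.

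Platform annotation gave 1 symbol for 20879 spots and none for 16753; 5005 symbols were updated through RefSeq synonyms. Spots of a gene were combined with 1 offset per spot. Testing required both arrays of 3 or more Mdr2-KO tumours and of 4 or more IkB-SR tumours. One model with 3 group means was fitted with limma 3.58.1 (R 4.3.3), with Benjamini-Hochberg adjustment over all features and a threshold of 0.05, beside two-sided exact permutation over tumours. P-values of correlations came from 100000 permutations. Python 3.11.15 with scipy 1.17.1 was used. On simulated data (14729 features, 200 changed, 5 simulations) the fit of IkB-SR against Mdr2-KO found 75.2% of the changes of 2-fold and 94.4% of those of 4-fold, and 5.36% of its calls were false. The changed features were drawn at random from all features, with noise independent between features. Every member varied more over the tumours than the median feature (SD 0.24), Sqle most (SD 1.27). These shares therefore do not give the chance of finding such changes in the members.

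The members and gene lists were chosen with earlier results of these data known. Named were the 8 members, listed pathway genes with an unadjusted p under 0.05 or named in advance as key regulators, the 8 genes most like the member mean, and Nfkbia and Eif2s3y; others are marked as chosen after their values were seen. Some listed genes are not reported here. The dye batches were set at an SD of dye differences of 0.5 after the values were seen. Other scalings, spot rules, dye orientations, weights, blocks and left-out tumours were tried as alternatives.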

Additional observations from a re-analysis of the deposited data

Results flagged for a closer look

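Dixon's 95% limit was passed in 7 of 82 combinations of a tumour group with a gene or the member mean. The combinations covered most genes named here, but left out Scap, Mbtps1 and the cell cycle genes. They also held Pmvk and Gpam, which are not named elsewhere. In each of the 7, 1 tumour lay far from the others of its group. Chance flags about 1 in 20 among independent genes chosen without regard to their values. Some genes here were chosen after their values were seen or for following the member mean, and many vary together. The count is therefore descriptive and carries no test. All 7 concern IkB-SR 3, IkB-SR 6 or Mdr2-KO 1, the tumours already singled out by the members' values.

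Among the members, Cyp51 was at -1.29 in IkB-SR 3, with the next IkB-SR tumour at 0.24, and at -1.71 in Mdr2-KO 1, with the next Mdr2-KO tumour at -0.13. Fdps was at 1.09 in IkB-SR 6, with the next IkB-SR tumour at 0.29.

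Among the other genes, of which Sc5d, Elovl6 and Stard4 were chosen after their values were seen, Sc5d, a sterol desaturase of the pathway, was at 3.27 in IkB-SR 6, with the next at 1.47, and Elovl6, a fatty acid elongase, was at 3.49 in IkB-SR 6, with the next at 1.53. Stard4 was at -0.88 in IkB-SR 3, with the next at 0.44. Fkbp11 was at -1.33 in Mdr2-KO 1, with the next Mdr2-KO tumour at -0.23.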

How the results depend on the processing

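The count of members called by limma was 0 in each of the 3 comparisons under every alternative run, with adjusted p-values from 0.330 to 1.00 between the tumour groups; of 165 such fits 4 had an unadjusted p under 0.05. Of the single-gene fits, 422 kept their direction and side of the threshold and 17 turned. For IkB-SR minus Mdr2-KO tumours, Sqle turned to -0.19 and Hmgcs1 to -0.38 with Eif2s3y as a covariate, Hmgcs1 to -0.22 among tumours with Eif2s3y below 0, and Fdps to -0.10 with array weights, -0.037 within dye batch 1, -0.13 with Eif2s3y as a covariate and -0.066 among tumours with Eif2s3y below 0. Leaving out 1 tumour at a time gave -0.087 to 0.16 for Fdps and -0.025 to 0.40 for Lss, with the lowest value of both without IkB-SR 6; without Mdr2-KO 1, Fdps was at -0.017. For Mdr2-KO tumours minus wild-type liver, Sqle turned to 0.072 with dye batch as a block, and Lss to -0.036 after median centring, -0.072 after quantile normalization and -0.20 on arrays with the sample in Cy3; leaving out 1 tumour gave -0.034 (without Mdr2-KO 7) to 0.24 for Lss. For IkB-SR tumours minus wild-type liver, arrays with the sample in Cy3 gave 0.13 for Mvk and -0.0041 for Lss. The cause of these turns was not tested.

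The median r over pairs of members was 0.44 without the 2 farthest tumours, 0.49 without the 2 lowest and 0.093 without these and the highest, the last 2 sets chosen after seeing the data; leaving out 1 tumour gave 0.62 to 0.77. Over all features, the count called between the tumour groups was 0 in the fit reported, 5 with a plain mean of spots (added after seeing the data), 7 after median centring, 31 after quantile normalization, 9 with dye batch as a block, 55 with array weights and 522 with 22 arrays and a dye term. In that last fit each sample enters as 2 arrays, tied by an estimated correlation of 0.078, so its p-values treat dye swaps as nearly independent and are too small. The unadjusted split was 567 higher and 1700 lower, against 1295 and 999 after quantile normalization. Against the wild-type liver, array weights called 108 and 22 arrays with a dye term 576 for Mdr2-KO tumours, where the fit reported called 43. Median centring moved the median of all features against the liver to -0.12 for IkB-SR and -0.09 for Mdr2-KO tumours, where the fit reported had -0.02 and 0.02. No paired analysis was possible because the groups share no replicate number.

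With 4 and 6 tumours and SDs of 0.52 to 1.31 for Sqle, Cyp51 and Msmo1, the standard errors of their differences were 0.71, 0.47 and 0.39, which limits the size of difference that could be detected. Dye differences of Msmo1, Cyp51 and Lss in batch 2 averaged -1.23, -1.42 and -1.11, against at most 0.43 in size in batch 1.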
